A study of Mus musculus with 6 samples.

Results

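The mouse genes Sgip1, Slco3a1, Syne2, Fastkd2, Wsb1, 4930402H24Rik and 5430416N02Rik had a called shift in mean transcript length between depolarization times. They are 7 of the 43432 genes listed, and 7 of the 11233 genes whose expected count averaged 100 or more. They were chosen by effective length in these 6 libraries, as the 3 genes with the largest log2 ratio, up or down, among the called length shifts of each of 3 comparisons. A length shift was called where limma's adjusted p was 0.05 or less and the log2 ratio 0.2 or more in size. Ratios of genes that were not called, or of called genes in another comparison, can be larger than those of the chosen genes. The calls that defined the choice depend on single libraries, and with any 1 of the 6 left out at most 2 genes were called at 2 h against 0 h, in place of 4. The lengths below are therefore a description of chosen genes and carry no test. The expected counts come from the same libraries, so they are another measure of the chosen genes and not independent support for the choice.

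Primary cortical neurons came from wild-type C57BL/6 mouse embryos at E16.5, with male and female embryos pooled, and were grown for 7 days in vitro. All 3 groups, the 0 h group included, were silenced overnight from day 6 with 1 µM TTX, a sodium channel blocker, and 100 µM DL-AP5, an NMDA receptor antagonist. The 0 h group had no KCl, and the 2 h and 6 h groups were depolarized with 55 mM KCl for those times before poly(A) RNA was sequenced. Each group holds 2 replicates, called biological by the study, and where they do not come from separate cultures the p-values measure only the spread between these samples.

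Total expected counts lay between 25959298 and 28573067 per library. The 7 neuronal markers summed to 2144 to 2947 TPM (RSEM's level corrected for length and library) and the 5 astrocyte markers to 362.9 to 473.6 TPM, with the neuronal sum highest and the astrocyte sum lowest at 6 h. The 5 oligodendrocyte lineage markers summed to 94.1 to 138 TPM. The 5 microglial markers summed to at most 6.45 TPM and the 4 endothelial markers to at most 1.17 TPM, with 3 genes of each list under 1 TPM in all 6 libraries and none at 0. The part of the shift between neuronal and astrocyte markers in the values below was not tested, and in bulk RNA fewer cells of a type and less RNA per cell cannot be told apart.

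A gene can give rise to several RNAs through other start sites, skipped or retained introns and other poly(A) sites. Stopping within an intron yields a short RNA that lacks the downstream exons, a poly(A) site further into the last exon yields a longer tail of untranslated sequence, and a start site inside the gene yields an RNA without the upstream exons. RSEM assigns the fragments of a gene to its listed transcripts and reports, for each gene, a mean length weighted by the estimated abundance of those transcripts. The effective length is this mean less the room a fragment takes, and length exceeded effective length by 301.96 to 322.28 bases depending on the library. TPM is the count divided by effective length and scaled to the library, so a count, a TPM and an effective length of 1 gene in 1 library are tied by arithmetic, and for the 7 genes the tie held within 0.0316%.

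The 7 genes list 72 transcripts in the deposited tables. Syne2 and 4930402H24Rik list 17 each, Sgip1 lists 15, Slco3a1 lists 8, Wsb1 lists 7, Fastkd2 lists 6 and 5430416N02Rik lists 2. The median over the genes tested for length was 4 transcripts, the upper quartile was 7, and 26.3% of them list 1 transcript and so cannot change in length by a change of mix. The GC content of the 7 genes ran from 40.4% for Fastkd2 to 54.3% for Slco3a1, around a median of 50.2% over the genes tested. Of the 72 transcripts 31 are annotated as protein coding, and the remainder as retained introns, processed transcripts, targets of nonsense-mediated decay or long non-coding RNAs.

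**Figure D1:**
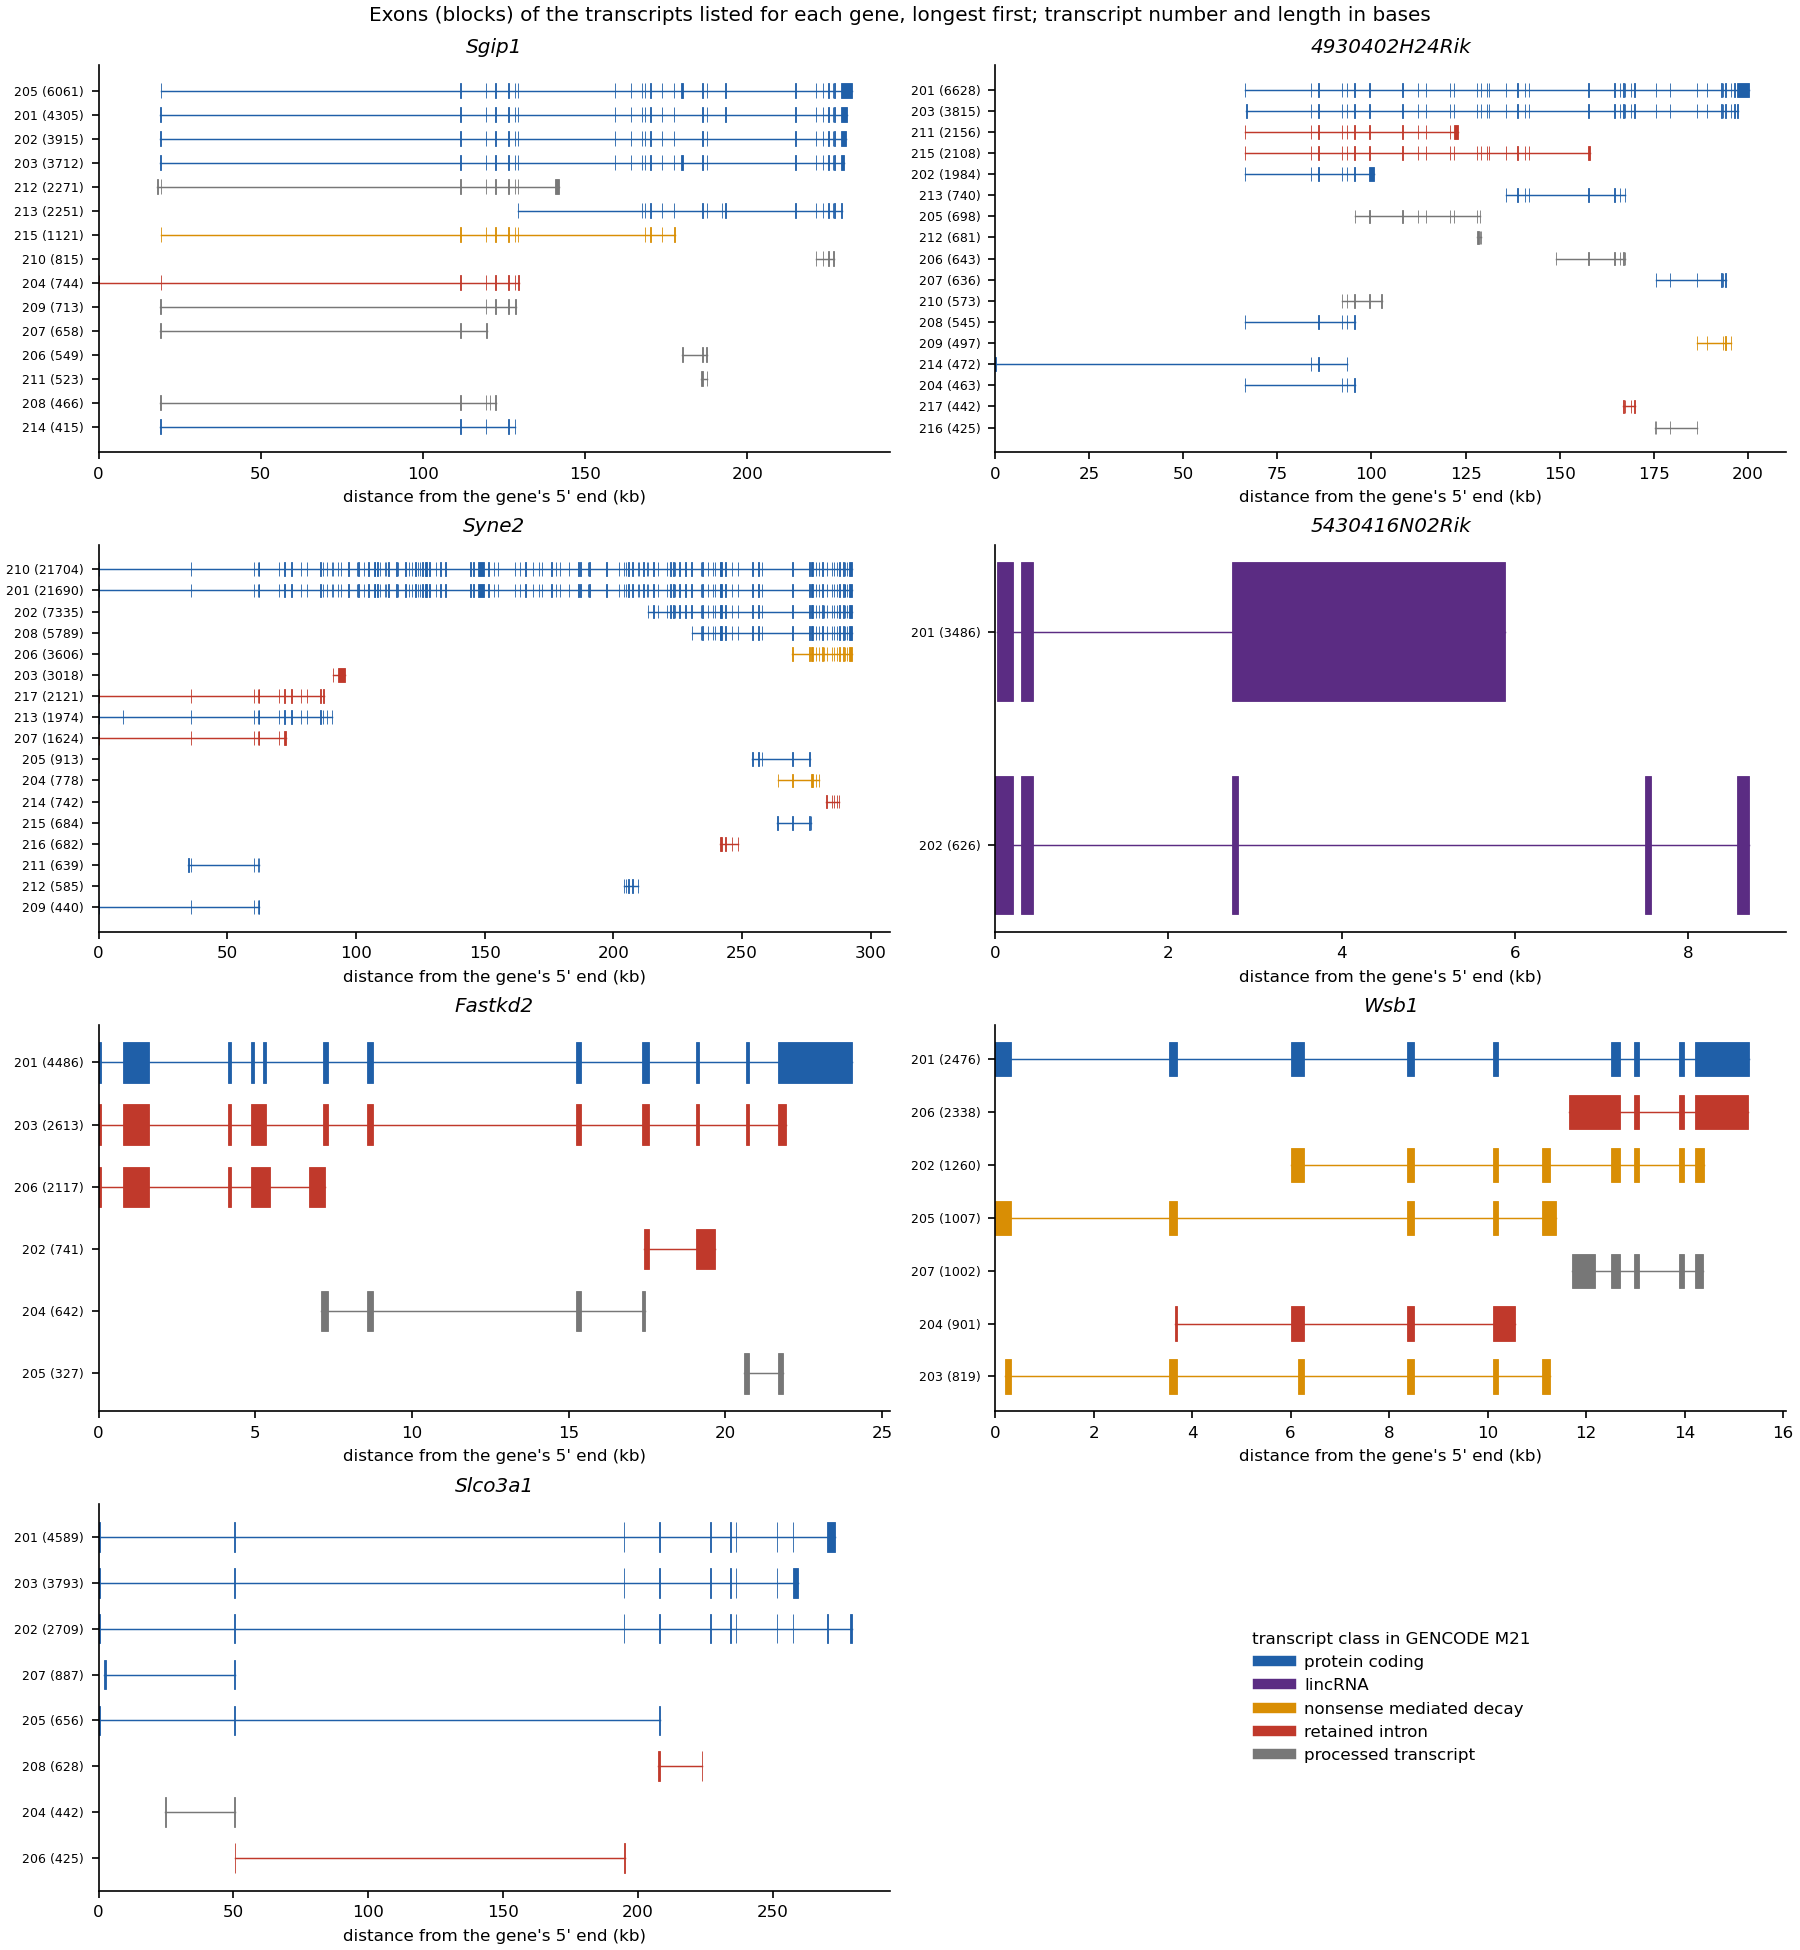
Exons (blocks) and introns (lines) of every transcript that the authors' RSEM output lists for the 7 genes, with positions from the GENCODE M21 annotation. Distance is in kb from the 5′ end of the gene, with the longest transcript of each gene on top and its length in bases in brackets. Colours give the annotated class. Sgip1-212 and 4930402H24Rik-202 stop far from the 3′ end of their genes, Syne2-201 and Syne2-210 run across nearly the whole gene, and Fastkd2-203 and Fastkd2-206 are retained-intron transcripts.

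The 3′ ends of chosen transcripts of 6 of the genes are printed to show where listed forms end, and which transcripts made up the length steps was for most genes not resolved. None is printed for Syne2, whose giant transcripts and Syne2-202 and Syne2-208 end in the same last exon region. Each is the last 30 bases of the transcript, or 30 bases moved upstream to hold the hexamer in Wsb1-201, 5′ to 3′ on the transcript strand, taken from the GENCODE M21 transcripts of GRCm38. Capitals mark the poly(A) signal hexamer nearest the 3′ end, AATAAA or ATTAAA, searched on the transcript strand only within the last 40 bases. Of 101510 listed transcripts found in this annotation 27.7% hold AATAAA in that window, 8.6% hold ATTAAA and 35.0% hold either. Of the 72 transcripts of the 7 genes 20 hold either, and many short ones are marked as incomplete in the annotation. A match describes these letters only, and a window without one says nothing about processing at that end.

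The coding transcript Sgip1-203 (3712 bases, chr4:102971148-102971177, plus strand) and the short Sgip1-212 (2271 bases, chr4:102883318-102883347, plus strand), which ends upstream of the last exons of the gene, both hold AATAAA. Sgip1-203 is the shortest of the 4 long coding transcripts and ends 2451 bases short of Sgip1-205 (6061 bases), which reaches the end of the gene and holds neither hexamer.
Sgip1-203: gaagaAATAAActttataaatgaaattcta
Sgip1-212: agtcAATAAAtgctcctgagtcaacagagt
The longest 4930402H24Rik transcript (201, 6628 bases, chr2:130706200-130706229, minus strand) and the short coding transcript 202 (1984 bases, chr2:130805676-130805705, minus strand) both hold AATAAA. Transcript 203 (3815 bases, chr2:130709130-130709159, minus strand) has the same number of exons as 201, 37, with a last exon of 189 bases against 3119 bases, and holds neither hexamer.
4930402H24Rik-201: aaggaccAATAAActgtcactcaacaagta
4930402H24Rik-202: aggaAATAAAagtaaaaggataagaaaaaa
4930402H24Rik-203: tgggtgtccagctttcctggaggcccctcc
The long 5430416N02Rik RNA (201, 3486 bases, chr5:100423652-100423681, minus strand) has a last exon of 3153 bases and no hexamer, while the short one (202, 626 bases, chr5:100420842-100420871, minus strand) ends further downstream after 5 short exons and holds ATTAAA.
5430416N02Rik-201: gagagacagagacagacactgaccatggcc
5430416N02Rik-202: tgtaATTAAAaaatcaaaatagtaaaactg
The coding transcripts Fastkd2-201 (chr1:63754626-63754655, plus strand) and Wsb1-201 (chr11:79239379-79239408, minus strand) are shown as the only coding transcripts of their genes, and Slco3a1-201 (chr7:74281858-74281887) and Slco3a1-202 (chr7:74275419-74275448), both on the minus strand, as alternative ends of 1 gene.
Fastkd2-201: gtataactagcttacAATAAAtctgccttt
Wsb1-201: tttaATTAAAcgacacaaaactactacatt
Slco3a1-201: ttatttataaatttaaaatctccctgtggc
Slco3a1-202: aattatATTAAAagcactattttaattctt
Of these 4 ends Slco3a1-201 alone holds neither hexamer.

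Because each library gives 1 mean length per gene, the shares of single transcripts were not measured here. The mean still sets limits. For any cut in length, the share of RNA molecules longer than the cut is lowest when those above it have the longest listed length and those up to it the longest allowed there, and highest when both sides take their shortest listed length. These limits were computed with the GENCODE M21 lengths of the listed transcripts and multiplied by the TPM of the gene to give a TPM range for the long and the short group. They are limits set by arithmetic on a mean length that RSEM estimated, and they carry the error of that estimate, which was not measured here. They also hold only as far as those lengths match the ones the authors used and the RNAs present are among the listed transcripts. Of 2932 single-transcript genes averaging 100 counts or more, 79.4% had a deposited length within 5% of the M21 length and 84.9% within 10%, so each separation below is given with lengths off by up to 5% and 10% as well.

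Sgip1 encodes an endocytic adaptor related to the FCHo proteins, which helps to form clathrin-coated pits. It lies at chr4:102741297-102973628 on the plus strand of GRCm38 (ENSMUSG00000028524). Its effective length was 2432 and 2400.3 bases in the 0 h libraries, 2505 and 2407 bases in those of 2 h, and 1149 and 1118 bases in those of 6 h. The 6 h libraries sat far below the others, and those of 0 h and 2 h overlapped. The log2 ratio of group means was -1.09 for 6 h against 0 h and -1.12 for 6 h against 2 h, a difference of -1283 and -1323 bases.

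Normalized counts of Sgip1 were 3150 and 3133 without KCl, 4516 and 3766 after 2 h and 5869 and 5901 after 6 h. They were higher at each later time without overlap. By DESeq2 the log2 fold change was 0.40 ± 0.13 (SE, adjusted p = 0.00938) at 2 h and 0.91 ± 0.13 (adjusted p = 1.41e-11) at 6 h against 0 h, both under the fold threshold of 1. TPM was 91.3 and 92.7 in the 0 h libraries, 111.3 and 98.4 in those of 2 h, and 314.5 and 331 in those of 6 h. The TPM ratio of 6 h to 0 h was 3.51, while the ratio of normalized counts was 1.87 and that of effective length 0.469. The first 2 ratios differ by the shorter mean length and by the separate scaling of TPM and normalized counts. The expected counts of Sgip1 were not whole numbers in any of the 6 libraries, so RSEM assigned some fragments to it only in part and its counts are uncertain. Where the remaining parts went was not tested.

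In Sgip1, 4 coding transcripts are 3712 bases or longer, and the other 11 are at most 2271 bases. The short group could hold 27.1 to 81.9 TPM at 0 h, 29.6 to 95.1 TPM at 2 h and 214 to 331 TPM at 6 h. Its lowest allowed level at 6 h thus exceeded its highest at both earlier times, and with lengths off by up to 10% the limits were still 198 against 87.9 and 103 TPM. The long group was allowed 10.9 to 64.7 TPM at 0 h and 0 to 102.5 TPM at 6 h, so a change in its own level was not resolved. The short group includes Sgip1-212, which has a last exon of 1365 bases inside the gene, and Sgip1-213, a coding fragment of 2251 bases. The mean does not tell these 2 apart. Transcripts of at most 1121 bases, shorter than both, were allowed 0 to 62.8 TPM at 0 h, 0 to 72.9 TPM at 2 h and 133.7 to 309.9 TPM at 6 h. Their 6 h range was above both others, also with lengths off by up to 10%, where the limits were 105.7 against 67.4 and 78.7 TPM. Which of these shorter transcripts were higher was not resolved.

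Slco3a1 encodes an organic anion transporter of the plasma membrane. It lies at chr7:74275419-74554780 on the minus strand (ENSMUSG00000025790). Effective lengths were 4061 and 3989 bases without KCl, 3134 and 3145 bases after 2 h and 3511 and 3517 bases after 6 h. All 3 groups were apart, with the lowest lengths at 2 h and a partial return at 6 h. The log2 ratio was -0.36 for 2 h against 0 h, -0.20 for 6 h against 0 h and 0.16 for 6 h against 2 h.

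Slco3a1 normalized counts were 2112 and 1836 in the 0 h libraries, 1620 and 1768 in those of 2 h, and 3579 and 3997 in those of 6 h. The 6 h libraries were above all others. Counts rose between 2 h and 6 h with a log2 fold change of 1.16 ± 0.14 (DESeq2 adjusted p = 4.37e-16). The log2 fold change of 6 h against 0 h was 0.94 ± 0.14 (adjusted p = 4.89e-11), under the fold threshold, and it passed the threshold at 1.06 after a correction for GC content, at 1.05 without 0 h replicate 1 and at 1.02 without 6 h replicate 1. At 2 h against 0 h it was -0.22 ± 0.14 (adjusted p = 0.256). TPM was 36.7 and 32.7 without KCl, 31.9 and 35.3 after 2 h and 62.8 and 71.3 after 6 h, so 0 h and 2 h overlapped in TPM but not in length.

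In Slco3a1, 3 coding transcripts, of 4589, 3793 and 2709 bases, run from the 5′ end to 3 different last exons, and the other 5 are at most 887 bases. These 3 together were allowed 30.2 to 36.7 TPM at 0 h, 22.1 to 35.3 TPM at 2 h and 49.95 to 71.3 TPM at 6 h. The 6 h range was above both others, also with lengths off by up to 10%, where its lower limit was 44.04 TPM. The longest, Slco3a1-201, was allowed 64.1% to 94.6% of the molecules at 0 h, 0% to 72.9% at 2 h and 5.1% to 81.9% at 6 h, ranges that overlap, so the transcript behind the shorter mean at 2 h was not resolved.

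Syne2 encodes nesprin-2, a giant protein of the nuclear envelope that ties the nucleus to the cytoskeleton through SUN proteins, and shorter forms start inside the gene. It lies at chr12:75818134-76110926 on the plus strand (ENSMUSG00000063450). Its effective length was 3582 and 3724 bases in the 0 h libraries, 6431 and 6203 bases in those of 2 h, and 7049 and 7564 bases in those of 6 h. All 3 groups were apart and each later group was longer. The log2 ratio was 0.79 at 2 h and 1.00 at 6 h against 0 h, or 2664 and 3654 bases, and 0.21 for 6 h against 2 h.

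Normalized counts of Syne2 were 1234 and 1387 without KCl, 1063 and 1073 after 2 h and 3405 and 3234 after 6 h. Counts rose at 6 h, with a DESeq2 log2 fold change of 1.34 ± 0.12 (adjusted p = 2.39e-27) against 0 h and 1.64 ± 0.12 (adjusted p = 3.77e-39) against 2 h. At 2 h against 0 h the log2 fold change was -0.30 ± 0.12 (adjusted p = 0.0578). TPM followed another course, with 24.3 and 26.5 in the 0 h libraries, 10.2 and 10.9 in those of 2 h, and 29.7 and 26.8 in those of 6 h. The 2 h libraries stood lowest, at 0.416 of the 0 h mean, while those of 6 h lay just above those of 0 h, at 1.12 of that mean. The count at 6 h was thus 2.53 times that at 0 h while TPM differed by a log2 ratio of 0.16.

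The giant transcripts Syne2-201 and Syne2-210, of 21690 and 21704 bases and 116 and 115 exons, start at position 75818318. The coding transcripts Syne2-202 (7335 bases, start 76031614) and Syne2-208 (5789 bases, start 76048578) end in the same last exon region, and both are annotated with the 5′ end not found, so the positions given are where the models break off and not start sites. Transcripts of at most 7335 bases were allowed 20.4 to 26.5 TPM at 0 h, 7.17 to 10.9 TPM at 2 h and 17.4 to 29.7 TPM at 6 h. The 2 h range was below both others, also with lengths off by up to 10%. The giant transcripts were allowed at most 4.48 TPM at 0 h, 3.11 TPM at 2 h and 9.70 TPM at 6 h, and only at 6 h was a level above 0 required, at 0.0746 TPM. The mean lengths of 7371 and 7882 bases at 6 h are above 7335 bases. At the annotated lengths RSEM's estimates thus include at least 0.3% and 3.8% giant transcripts among the molecules of the 6 h libraries. With lengths off by up to 5% a share of 1.2% was still required in replicate 2 and none in replicate 1, and with 10% none in either. The remaining mix at 6 h was not resolved.

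Fastkd2 encodes a mitochondrial RNA-binding protein needed for the mitochondrial ribosome. It lies at chr1:63730614-63754655 on the plus strand (ENSMUSG00000025962). The effective length was 1999 and 2014 bases without KCl, 2799 and 2742 bases after 2 h and 2265 and 2229.8 bases after 6 h. The 2 h libraries were the longest, and 6 h lay between the other groups without overlap. The log2 ratio was 0.47 at 2 h and 0.16 at 6 h against 0 h, and -0.30 for 6 h against 2 h.

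Fastkd2 normalized counts were 452.7 and 484.6 in the 0 h libraries, 448.4 and 399.1 in those of 2 h, and 341.3 and 308.7 in those of 6 h. No fold change passed the threshold. The DESeq2 log2 fold change was -0.15 ± 0.17 (adjusted p = 0.61) at 2 h, where its sign turned to 0.02 under the GC correction, and -0.53 ± 0.17 (adjusted p = 0.0056) at 6 h against 0 h. TPM was 16.0 and 17.1 without KCl, 9.89 and 9.15 after 2 h and 9.28 and 8.68 after 6 h. Both later groups were below 0 h in TPM, at 0.576 and 0.544 of its mean, whereas the count ratio of 2 h to 0 h was 0.904.

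Fastkd2-201 (4486 bases, last exon 2359 bases) is the only coding transcript of the gene, and Fastkd2-203 and Fastkd2-206, of 2613 and 2117 bases, keep introns. Transcripts of at most 2613 bases were allowed 8.39 to 17.1 TPM at 0 h, 3.15 to 7.23 TPM at 2 h and 4.04 to 9.28 TPM at 6 h. The 2 h range was below that of 0 h, a separation that was lost with lengths off by 5%. The coding transcript was allowed 0 to 8.22 TPM at 0 h, 2.16 to 6.64 TPM at 2 h and 0 to 5.04 TPM at 6 h, ranges that overlap.

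Wsb1 encodes a WD-repeat and SOCS-box protein that brings substrates to a ubiquitin ligase. It lies at chr11:79239372-79254671 on the minus strand (ENSMUSG00000017677). Effective lengths were 1601 and 1599.6 bases in the 0 h libraries, 2034 and 2071 bases in those of 2 h, and 1931 and 1939 bases in those of 6 h. Both depolarized groups were longer than 0 h, with 2 h the longest. The log2 ratio was 0.36 at 2 h and 0.27 at 6 h against 0 h.

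Wsb1 normalized counts were 1878 and 1702 without KCl, 3493 and 2880 after 2 h and 3142 and 3091 after 6 h. The depolarized libraries were all above those of 0 h, and 6 h lay within the spread of 2 h. The DESeq2 log2 fold change was 0.83 ± 0.14 (adjusted p = 7.07e-08) at 2 h and 0.80 ± 0.14 (adjusted p = 1.07e-07) at 6 h against 0 h, both under the fold threshold, and -0.03 ± 0.14 (adjusted p = 0.88) for 6 h against 2 h. TPM was 82.7 and 75.6 in the 0 h libraries, 106 and 87.4 in those of 2 h, and 100.2 and 99.97 in those of 6 h, a smaller difference than in counts.

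Wsb1 has 1 annotated coding transcript, Wsb1-201 (2476 bases), 1 long retained-intron transcript, Wsb1-206 (2338 bases), and 5 transcripts of at most 1260 bases, 3 of them annotated as targets of nonsense-mediated decay. The 2 long transcripts together were allowed 52.8% to 72.1% of the molecules at 0 h, 89.9% to 100% at 2 h and 81.7% to 94.7% at 6 h. In TPM the long group was allowed 40.6 to 59.0 at 0 h, 80.9 to 106 at 2 h and 81.8 to 94.7 at 6 h, and the short group 21.1 to 39.0, 0 to 10.8 and 5.29 to 18.4. At the annotated lengths both groups of transcripts were thus separated between 0 h and each later time. With lengths off by up to 5% the long group stayed separated in TPM, with at most 64.4 at 0 h against at least 72.7 at 2 h and 73.0 at 6 h, while the separation of the short group was lost at both times. The share at 2 h stayed above that at 0 h under 5%, with 80.6% against 78.7%, and the separation of the share at 6 h was lost. With 10% no share and neither TPM range was separated.

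4930402H24Rik is an annotated protein-coding gene at chr2:130706200-130906406 on the minus strand (ENSMUSG00000027309). Its effective length was 5418 and 5395 bases without KCl, 4546 and 4633 bases after 2 h and 2577 and 2605 bases after 6 h. All 3 groups were apart and each later group was shorter. The log2 ratio was -0.24 at 2 h and -1.06 at 6 h against 0 h, or -817 and -2815 bases, and -0.82 for 6 h against 2 h.

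Normalized counts of 4930402H24Rik were 6008 and 5877 in the 0 h libraries, 3554 and 3881 in those of 2 h, and 2599 and 2345 in those of 6 h. Counts fell at 6 h against 0 h, with a DESeq2 log2 fold change of -1.27 ± 0.12 (adjusted p = 2.24e-26). The log2 fold change was -0.68 ± 0.11 (adjusted p = 6.35e-08) at 2 h against 0 h and -0.59 ± 0.12 (adjusted p = 2.33e-06) for 6 h against 2 h. TPM was 78.2 and 77.4 without KCl, 48.3 and 52.7 after 2 h and 62.1 and 56.5 after 6 h. Between 2 h and 6 h TPM was thus higher in both later libraries, at a ratio of 1.17, where the count ratio was 0.665.

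Transcript 4930402H24Rik-201, the only one longer than 3815 bases, was allowed 67.3% to 85.4% of the molecules at 0 h, 37.3% to 72.9% at 2 h and 0% to 40.3% at 6 h. The ranges of 0 h and 6 h were apart, also with lengths off by up to 10%, where they were 48.9% to 95.6% and 0% to 45.5%. In TPM it was allowed 52.1 to 66.7 at 0 h, 18.0 to 38.4 at 2 h and at most 24.8 at 6 h, below the 0 h range at both later times, and with lengths off by 10% this separation was lost at 2 h and held at 6 h. All shorter transcripts together were allowed 11.4 to 25.3 TPM at 0 h, 13.7 to 31.5 TPM at 2 h and 33.7 to 62.1 TPM at 6 h. The separation of 6 h in the shorter group was lost with lengths off by 5%. The long non-coding gene A730017L22Rik overlaps 33338 bases of the locus on the same strand, with expected counts of 741.2 and 704 in the 0 h libraries, 629.8 and 567.3 in those of 2 h, and 226.7 and 181.6 in those of 6 h, also lowest at 6 h. The expected counts of 4930402H24Rik were whole numbers in all 6 libraries, while those of A730017L22Rik were not whole in any of them (704.02 in 0 h replicate 2). The part of A730017L22Rik in the values of 4930402H24Rik was not tested.

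5430416N02Rik is a long intergenic non-coding RNA at chr5:100420842-100429535 on the minus strand (ENSMUSG00000097772), and the least abundant of the 7 genes in counts. Its expected counts were not whole numbers in 2 of the 6 libraries, 0 h replicate 1 and 2 h replicate 1. RSEM thus assigned some fragments there to 5430416N02Rik only in part, and those counts are uncertain. Its effective length was 579.4 and 596.7 bases without KCl, 586.5 and 569.3 bases after 2 h and 1067 and 1048 bases after 6 h. The 0 h and 2 h libraries overlapped, and the 6 h libraries were far above them. The log2 ratio of 6 h was 0.85 against 0 h and 0.87 against 2 h, or 470 and 480 bases.

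Normalized counts of 5430416N02Rik were 123.4 and 110.4 in the 0 h libraries, 146.8 and 144.7 in those of 2 h, and 234.3 and 232.3 in those of 6 h. By DESeq2 the log2 fold change of 6 h against 0 h was 0.998 ± 0.22 (adjusted p = 3.06e-05), on the edge of the fold threshold, and it passed at 1.08 without 0 h replicate 1 and at 1.00 without 6 h replicate 2. It was 0.32 ± 0.23 (adjusted p = 0.341) at 2 h against 0 h and 0.68 ± 0.22 (adjusted p = 0.00602) for 6 h against 2 h. TPM was 15.0 and 13.1 without KCl, 15.5 and 16.0 after 2 h and 13.5 and 13.9 after 6 h. The 6 h libraries fell within the range of 0 h in TPM, although their counts were 2.00 times as high on average.

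With 2 listed transcripts, the mean length fixes the share that RSEM estimated for each. Transcript 5430416N02Rik-201, of 3486 bases, came to 8.9% and 10.0% of the molecules in the 0 h libraries, 9.8% and 9.0% in those of 2 h, and 26.7% and 25.9% in those of 6 h. In TPM this was 1.31 to 1.34 at 0 h, 1.44 to 1.51 at 2 h and 3.60 to 3.61 at 6 h for the long transcript. The short transcript came to 11.8 to 13.6 TPM at 0 h, 13.9 to 14.6 TPM at 2 h and 9.90 to 10.3 TPM at 6 h. The long transcript was thus higher and the short one lower at 6 h than at both other times, also with lengths off by up to 10%. The annotation used here holds further transcripts of this gene that the deposited tables do not list.

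**Figure D2:**
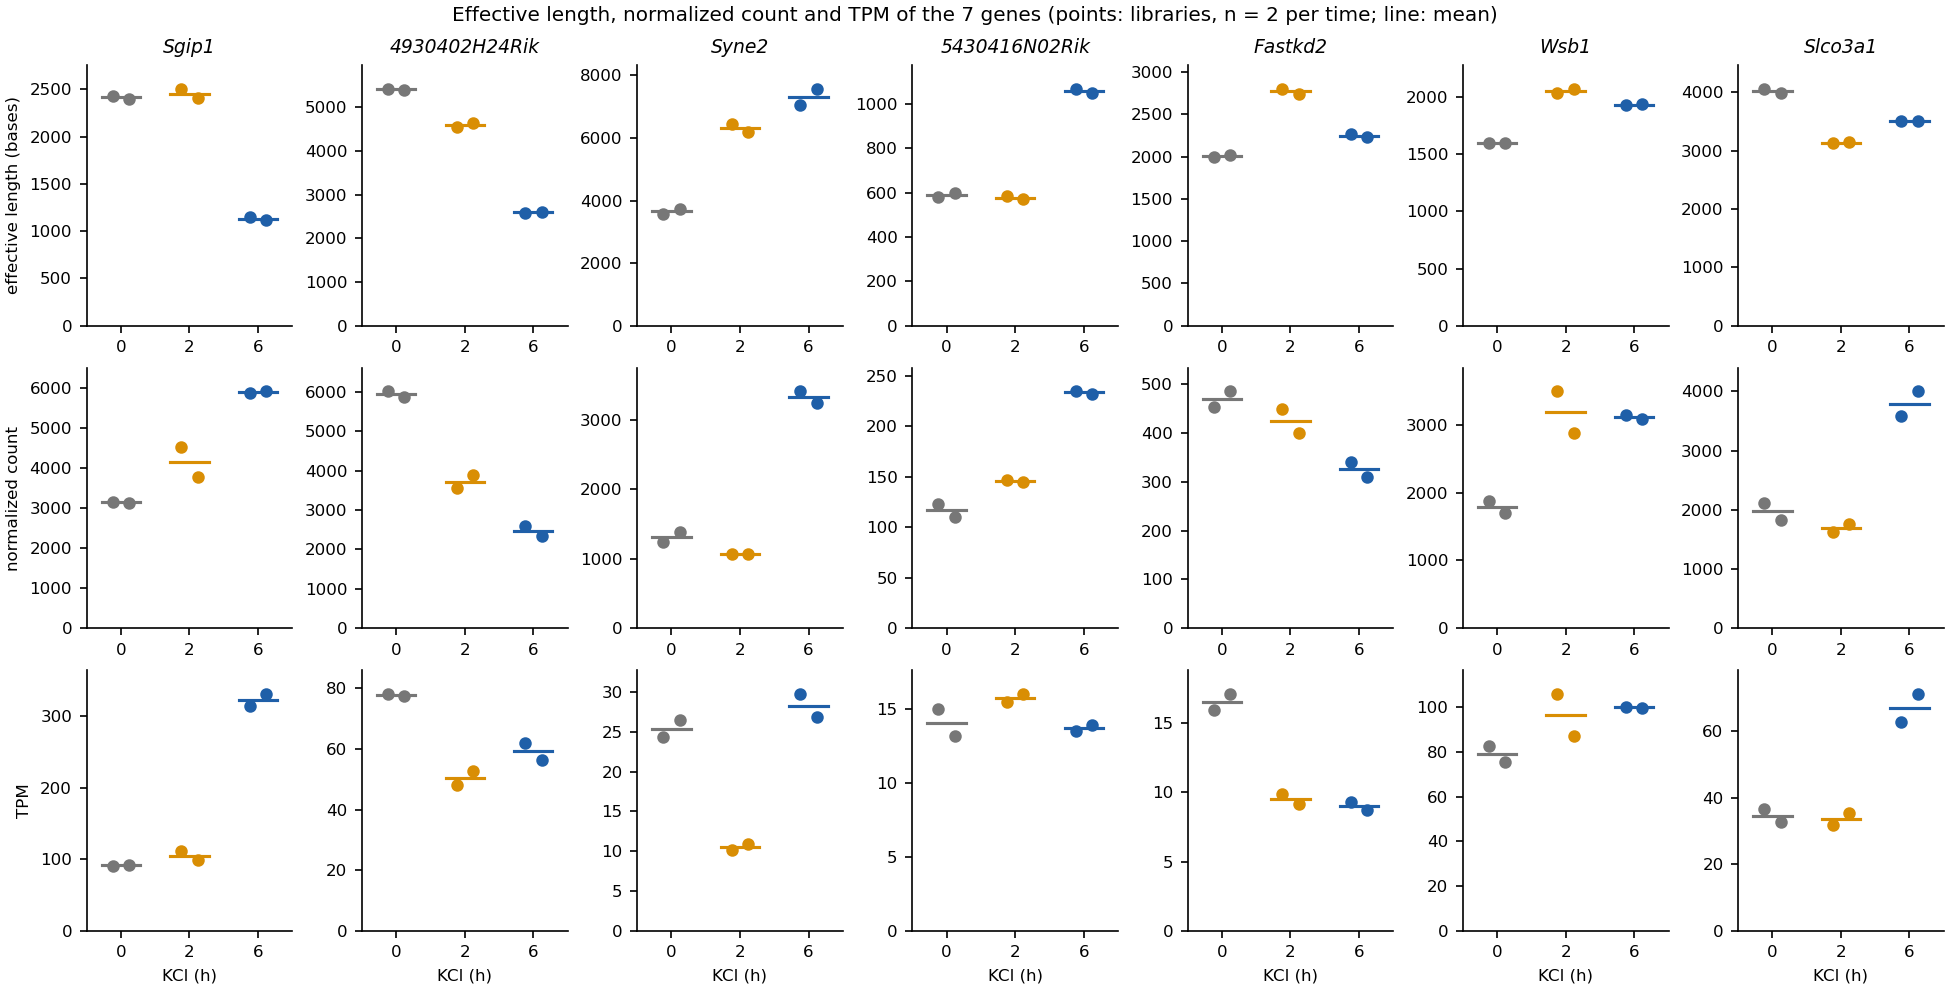
Effective length in bases (top), normalized count (middle) and TPM (bottom) of the 7 genes against hours of KCl, with 1 point per library, 2 libraries per time and a line at the mean, on axes that start at 0. At 6 h the effective lengths of Sgip1 and 4930402H24Rik are below and those of Syne2 and 5430416N02Rik above all 0 h libraries, while Fastkd2, Wsb1 and Slco3a1 are most distant from 0 h at 2 h.

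**Figure D3:**
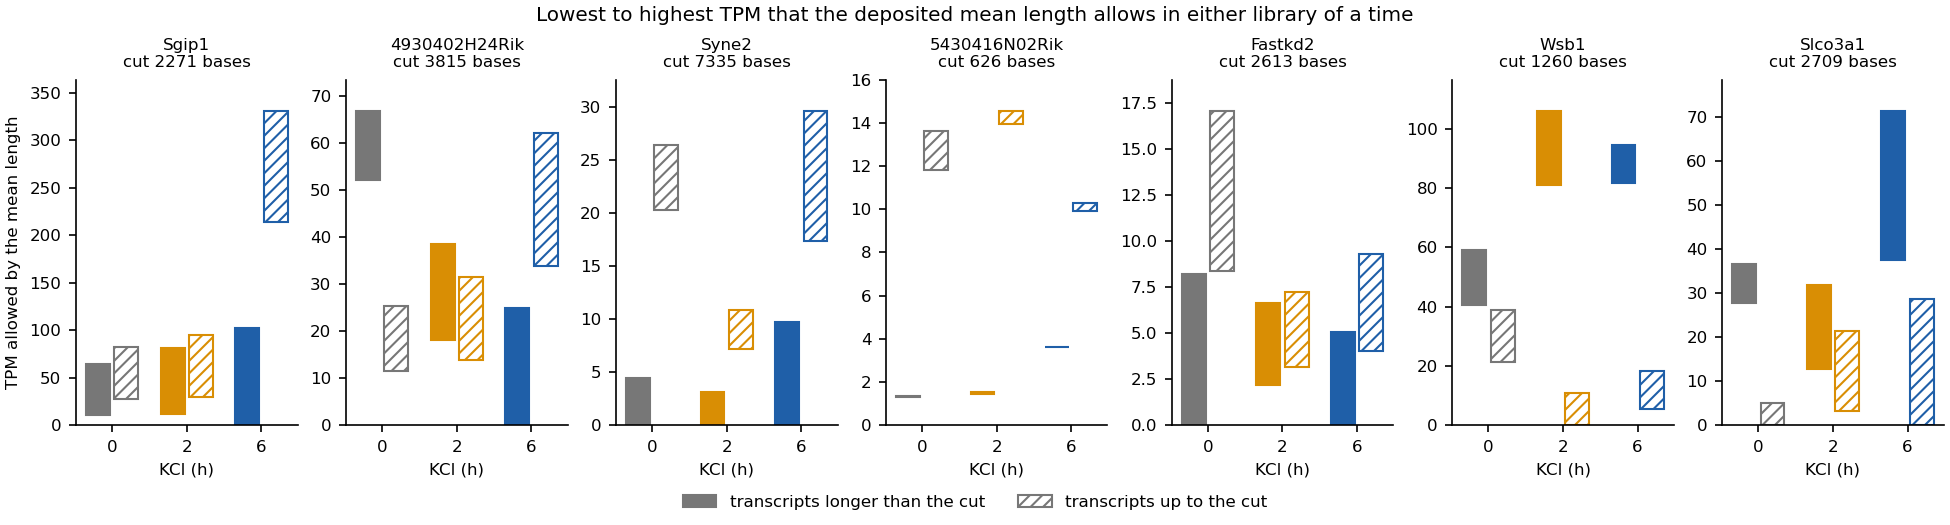
Lowest to highest TPM allowed in either library of a time by the deposited mean length, for transcripts longer than a cut (filled) and up to the cut (hatched), at 0, 2 and 6 h of KCl. The bars of the short Sgip1 transcripts at 6 h and of Syne2 transcripts up to 7335 bases at 2 h do not meet the bars of the same transcripts at the other times.

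Set side by side, counts and TPM of these genes differed in size and at times in sign. At 2 h against 0 h, 0 of the 7 genes passed both DESeq2 thresholds (adjusted p 0.05 or less, fold change above 1 in log2 size), where 9.55% of 16840 genes did, 3.62% higher and 5.94% lower. At 6 h against 0 h Syne2 rose and 4930402H24Rik fell, where 9.1% of 17277 genes were called higher and 10.2% lower (19.3% in all), and the count of 2 members became 4 without 0 h replicate 1. For 6 h against 2 h Syne2 and Slco3a1 rose, where 10.1% of 16404 genes were called higher and 8.02% lower (18.1% in all). The adjusted p alone passed for 3, 7 and 5 of the 7 genes in these comparisons, where 26.5%, 45.3% and 45.3% of all genes tested passed it. The median log2 fold change of the 7 genes was -0.15, 0.91 and 0.51, beside medians of 0.015, 0.0 and -0.005 over all genes tested.

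Of 21 pairs of gene and comparison, 4 had log2 ratios of count and TPM of opposite sign, and in 3 of them the count passed the adjusted p, namely 4930402H24Rik for 6 h against 2 h and 5430416N02Rik in both comparisons with 6 h. In 2 of the 4 the libraries overlapped in TPM and the log2 ratio of TPM was near 0, so its sign was not resolved. For 5430416N02Rik at 6 h against 0 h it was -0.04 and turned to 0.06 without 0 h replicate 1. For Wsb1 at 6 h against 2 h it was 0.05 and turned to -0.08 without 2 h replicate 2. TPM is scaled to the sum over genes of count divided by effective length in each library, a scale other than the size factors or the library totals. With library totals as size factors the median of all genes moved by -0.17, -0.25 and -0.08 on the log2 scale in the 3 comparisons. The count fold changes of the 7 genes kept their sign under that scaling, and against these shifts Syne2 at 6 h was 1.09 above 0 h and 4930402H24Rik was -1.51. Under the same scaling Sgip1 lost its adjusted p at 2 h against 0 h (0.155, DESeq2) while Syne2 (0.00284) and Slco3a1 (0.0255) gained one.

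**Figure D4:**
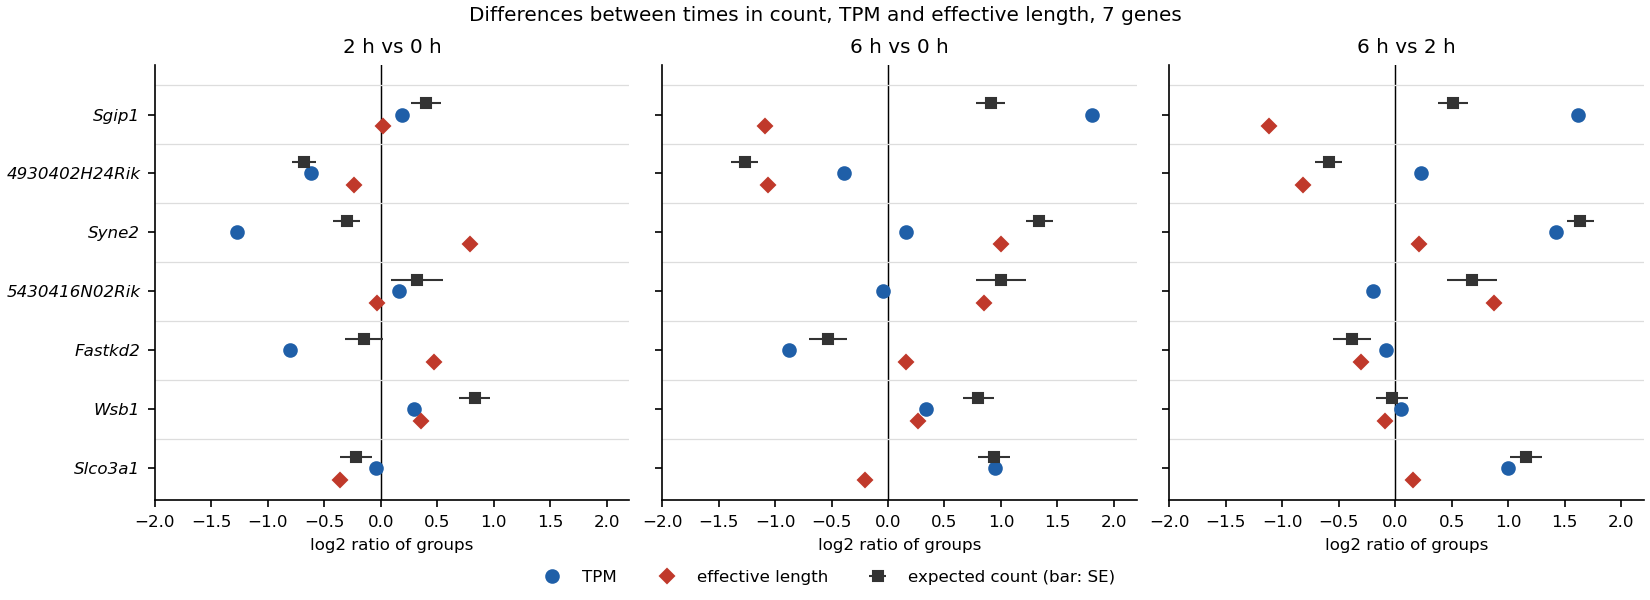
Log2 ratios between times of expected count (squares, DESeq2 fold change with its SE), TPM (circles) and effective length (diamonds) of group means for the 7 genes in 3 comparisons. At 6 h against 0 h 5430416N02Rik has a count ratio of 0.998, a length ratio of 0.85 and a TPM ratio of -0.04, Syne2 has 1.34, 1.00 and 0.16, and Sgip1 has a TPM ratio of 1.81 above its count ratio of 0.91.

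Length shifts passing the threshold were rare in the whole table, with 4 genes (0.0356%) at 2 h against 0 h, 2 longer (0.0178%) and 2 shorter (0.0178%), 59 genes (0.525%) at 6 h against 0 h and 13 genes (0.116%) for 6 h against 2 h. Of the 59 genes 50 were shorter at 6 h (0.445%) and 9 longer (0.0801%), and of the 13 genes 10 were shorter (0.089%) and 3 longer (0.0267%). These counts rest on single libraries, since leaving out 1 library at a time gave 0 to 2, 1 to 23 and 0 to 22 genes, with 1 gene at 6 h against 0 h without 0 h replicate 1. With a replicate block 0, 2 and 3 genes were called. The 7 genes hold 3, 5 and 4 of these calls by the way they were chosen. Among called genes the values nearest the edge of the choice were -0.36 for Slco3a1 and -0.25 for Tbkbp1 just outside it at 2 h against 0 h, and -0.82 for 4930402H24Rik and -0.72 for Tecpr1 just outside it for 6 h against 2 h. At 6 h against 0 h Syne2 at 1.00 was the last inside, and the next, 5430416N02Rik at 0.85, entered through 6 h against 2 h. Syne2 had a larger ratio at 2 h against 0 h, 0.79, than the 3 genes chosen there, but was not called in that comparison.

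Other genes followed the length course of single members closely over the 6 libraries, among 3160 genes whose log2 effective length ranged over at least 0.2. The most alike in Pearson's r of log2 effective length were Cxxc4 (0.997) for Sgip1, Spryd7 (0.996) for 4930402H24Rik, Ddx31 (0.992) for Syne2, Adsl (0.9898) for 5430416N02Rik, Kctd6 (0.982) for Fastkd2, Zfp384 (0.994) for Wsb1 and Pabpn1 (0.995) for Slco3a1. These points are 6 libraries at 3 times, so each r describes the order of 3 levels and was picked as the highest of many.

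Cleavage and polyadenylation factors cut the nascent RNA at a poly(A) signal and add the tail, and U1 snRNP restrains the use of such signals inside introns. Of 28 genes of this machinery, all tested, 4 were called higher and 2 lower at 2 h against 0 h, 8 higher and 3 lower at 6 h against 0 h, and 3 higher and 4 lower for 6 h against 2 h. Over all genes tested 3.62% were called higher and 5.94% lower at 2 h against 0 h, 9.1% and 10.2% at 6 h against 0 h, and 10.1% and 8.02% for 6 h against 2 h. The median log2 fold change of the list was 0.16, 0.10 and 0.12, beside 0.015, 0.0 and -0.005 over all genes tested. Pcf11, a cleavage and termination factor, had 1499 and 1369 normalized counts without KCl, 5623 and 4071 after 2 h and 1166 and 879.8 after 6 h, a rise by a DESeq2 log2 fold change of 1.76 ± 0.21 (adjusted p = 9.89e-16) and a later change of -2.24 ± 0.21 (adjusted p = 2.71e-25). Papolg, a poly(A) polymerase, had the opposite course, with 890.4 and 831.8, then 244.7 and 204.7, then 823.9 and 914.2 normalized counts. Its log2 fold changes were -1.94 ± 0.17 (DESeq2 adjusted p = 5.07e-29) and 1.95 ± 0.17 (adjusted p = 2.78e-29).

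Cpsf3, the endonuclease that cuts the RNA, fell at 6 h, with a fold change of -1.53 ± 0.14 on the log2 scale against 0 h (DESeq2 adjusted p = 7.25e-27). Cdk12, a kinase of the RNA polymerase II tail, rose by 1.38 ± 0.12 (adjusted p = 4.5e-29), Pabpn1, a nuclear poly(A)-binding protein, by 1.24 ± 0.11 (adjusted p = 1.23e-26), and Snrnp70, a U1 protein, by 1.23 ± 0.13 (adjusted p = 1.56e-19). With library totals as size factors the 11 calls of the list at 6 h against 0 h became 4, 1 higher and 3 lower, and the 6 calls at 2 h against 0 h became 5, 2 higher and 3 lower. In effective length 1 of the 28 genes was called in any comparison, Cdk12, with a log2 ratio of 0.29 for 6 h against 2 h, where 0.0267% of all genes tested were called longer and the count of all length calls was 0 without either 0 h replicate or 2 h replicate 2. The part of these genes in the length shifts of the 7 genes was not tested.

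Paralogs and partners of the 7 genes, 27 in all (Wsb2, the FASTK family, other nesprins and SUN proteins, Fcho1 and Fcho2, and the organic anion transporters), had no called length shift among the 13 with enough counts. With 0.0356%, 0.525% and 0.116% of all genes called in length, that count says nothing particular about these 13. In counts 22, 23 and 21 of them had an adjusted p, and 1 was called higher and 2 lower at 2 h against 0 h, 3 higher and 2 lower at 6 h against 0 h, and 4 higher and 2 lower for 6 h against 2 h, with medians of 0.08, 0.35 and 0.18. The 3 calls at 2 h against 0 h became 1, with 0 higher, with edgeR, with the compared groups only, without 0 h replicate 2 and without 6 h replicate 1, and the 6 calls for 6 h against 2 h became 2, both higher, with the GC correction. In the same comparisons 9.55%, 19.3% and 18.1% of all genes tested were called, with medians of 0.015, 0.0 and -0.005. Among the mitochondrial RNA-binding relatives of Fastkd2, Fastkd3 fell at 2 h, by a DESeq2 estimate of -1.80 on the log2 scale ± 0.25 (adjusted p = 3.38e-11) and Fastkd5 rose between 2 h and 6 h by 2.31 ± 0.25 (adjusted p = 2.05e-18). Fastkd5 had 340.9 and 343.8 normalized counts without KCl, 214.7 and 127.2 after 2 h and 901 and 795.9 after 6 h. Slco1c1, a transporter of thyroid hormone, rose at 6 h against 0 h by 1.35 ± 0.14 (DESeq2 adjusted p = 5.27e-20), and Slco4a1 was called lower, at -1.83 ± 0.71 (adjusted p = 0.0252). The fold of Slco4a1 rests on few counts with a wide spread, 54.2 and 26.1 normalized counts at 0 h and 5.35 and 17.2 at 6 h. Slco1b2 was also called higher at 2 h and at 6 h, from 1.78 and 0 normalized counts at 0 h, a level at which no fold is given.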

How the data were processed

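RNA-seq tables of 6 libraries were used, 1 per sample. Per the labels and the study's methods, the authors made stranded paired-end libraries after poly(A) selection, trimmed reads, mapped them to mm10 and ran RSEM, and the submitters' processing notes name RSEM 1.3.0 and Bowtie2 2.2.9. The annotation release, and whether RSEM used strand, are not given in the sources used here. Expected counts deposited by the authors are not normalized and need not be whole. RSEM corrected the TPM values, as deposited by the authors, for length and scaled them to each library. Lengths and effective lengths deposited by the authors are in bases, and the FPKM values deposited by the authors were not used. Bisulfite libraries were not analysed here.

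The 7 genes and both gene lists were chosen with earlier results of these data known. Expected counts were rounded, and 22515 genes with a count were fitted with DESeq2 1.42.0 in R 4.3.3 (all 6 libraries, group as the only term, median-of-ratios size factors, Wald test, Benjamini-Hochberg adjustment). Calls needed an adjusted p of 0.05 or less and a log2 fold change above 1 in size, as in the study's methods. Log2 effective length was fitted with limma 3.58.1 (trend, genes averaging 100 expected counts or more, called at an adjusted p of 0.05 or less and a log2 ratio of 0.2 or more in size) to reconstruct the choice and its background share. Both fits were tested on simulated data. Alternatives were edgeR 4.0.16, other size factors and filters, the compared groups only, a replicate block, a GC correction and leaving out each library, and, added after seeing the data, transcript lengths off by 5% or 10%. Of the listed transcripts 97.9% were found in GENCODE M21 (GRCm38), which gave positions, lengths and sequences, 1-based. Genes named were the 7, the most alike in length course, those at the edge of the choice, and called genes of both lists with the largest fold changes, and others of the lists were named after their values were seen. Reads carry no molecular identifiers, so precision from counts covers counting error only.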

Additional observations from a re-analysis of the deposited data

How the results depend on the processing

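Of 28 limits on transcript levels recomputed with lengths off by 5% or 10%, 26 differed from those at the annotated lengths. Counts of called length shifts also moved. Leaving out 1 library at a time gave 0 to 2 genes at 2 h against 0 h (4 with all), 1 to 23 at 6 h against 0 h (59) and 0 to 22 for 6 h against 2 h (13). The count was 0 at 2 h against 0 h without 2 h replicate 2 or either 6 h replicate, 1 at 6 h against 0 h without 0 h replicate 1, and for 6 h against 2 h 0 without either 0 h replicate or 2 h replicate 2 and 22 without 6 h replicate 1. The length column in place of effective length gave 25 genes at 6 h against 0 h, and for 6 h against 2 h count minimums of 50 and 200 gave 6 and 21 and limma without trend gave 7. Nothing in the labels says what the replicate numbers share. Deviations of same-numbered libraries correlated at 0.25, -0.0141 and 0.145 over 12290 genes in counts and at 0.0381, 0.0346 and 0.0254 over 11233 genes in length, which does not establish a pairing, and with a replicate block 0, 2 and 3 length shifts were called. Members called under the replicate block were 0, 2 and 2, as without it. Members called at 6 h against 0 h ranged from 2 to 4 when 1 library was left out. With library totals as size factors the 3′ end list had 4 calls at 6 h against 0 h and 5 at 2 h against 0 h, 2 of them higher. Calls among paralogs at 2 h against 0 h were 1 with edgeR and 1 with the compared groups only, ranging from 1 to 3 without single libraries, and for 6 h against 2 h 2 with the GC correction and 2 with the replicate block and GC correction. In the whole table calls at 2 h and 6 h against 0 h were 37.8% and 47.2% higher, against 27.3% and 28.7% with library totals. The log2 fold change of Fastkd2 at 2 h against 0 h turned to 0.02 with the GC correction and 0.01 with block and GC correction, and that of Wsb1 for 6 h against 2 h ranged from -0.15 to 0.12 without single libraries, the sign turning without 2 h replicate 1. The cause was not tested. In member ratios of TPM all 105 alternatives stayed within the replicate spread, as did 92 of 105 for effective length. The other 13, all with the length column, were smaller in size with the same sign. Most of these alternatives left out 1 library, which with 2 libraries per group could not move a ratio beyond that spread, so they say nothing about stability. Only the length column, for effective length, and an added 1 TPM, for TPM, could do so, in 21 pairs of gene and comparison each.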
